A study of Mus musculus with 12 samples.

Results

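Transporters that carry glucose, amino acids and lactate across membranes were compared among 4 populations of EGFR+ cells sorted from mouse glioblastomas (GBMs). The members are the 40 genes of 18180 in the deposited table whose symbols belong to the SLC2, SLC7, SLC16 or SLC38 families, together with *Slc3a2*. This rule uses names and no measured level. They comprise 8 SLC2 genes (glucose and related sugars), 11 SLC7 genes and *Slc3a2* (amino acids), 11 SLC16 genes (lactate and other small molecules) and 9 SLC38 genes (glutamine and other neutral amino acids). The RNA came from 3 end-stage tumors, T3, T4 and T5, each sorted into PDGFRA+, PDGFRA-, GAL1+ and GAL1- fractions, which gives 12 libraries and 3 per population. All 4 populations shared the same genotype, which included conditional (Cre/lox) overexpression of human EGFR, Cdkn2A-/- and a conditional luciferase reporter, in mice 12 to 16 weeks old on a background mixed from 129S4, C57Bl/6J, Balb/cJ and FVBN/J, to which the study's methods add SJL. Tumors were started by a Cre lentivirus injected into the brain, so the cells that recombined are those the virus reached. The labels name no treatment, and no tumor-free brain was part of this comparison. The cells were stained for EGFR with either PDGFR or Galectin-1, so a PDGFRA sort and a GAL1 sort divided the same EGFR+ cells in 2 ways and their fractions can hold the same kinds of cells.

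Glucose enters cells mainly through the GLUT proteins of the SLC2 family, and cells that rely on glycolysis export the resulting lactate through the proton-coupled monocarboxylate transporters of the SLC16 family. Most SLC7 light subunits reach the cell surface only when they are joined to a heavy subunit, which for LAT1, LAT2, y+LAT1, y+LAT2, Asc-1 and xCT is the product of *Slc3a2* (4F2hc, CD98). In brain, GLUT1 is known for the blood-brain barrier, GLUT3 for neurons, SNAT3 for glutamine release from astrocytes, and xCT for the cystine uptake that feeds glutathione synthesis in glioma cells.

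Levels are log2 CPM (read counts scaled to the size of the library, on a log2 scale) and 3 values given together belong to T3, T4 and T5 in that order. The table was fitted as a whole with limma, the tumor as a block, and a difference was called where the p-value, adjusted by Benjamini-Hochberg across the 18180 genes, was under 0.05. SE is the standard error of a fitted difference. Estimated depth ran from 9851175 to 24117541 reads per library. A level of 3 reads lay between -2.99 and -1.44 on the log2 CPM scale, depending on the library. Each p-value rests on the spread left over all libraries after population means and shifts between tumors were fitted. That spread was moderated across genes by limma and comes from 3 tumors only. *Pdgfra* averaged 10.30 ± 0.45 (SD, n = 3) in PDGFRA+ cells and 8.70 ± 1.38 in PDGFRA- cells. Libraries of both fractions overlapped for this gene, with 9.95 to 10.81 in PDGFRA+ libraries and 7.36 to 10.11 in PDGFRA- libraries, and it was not called between them (1.60, SE 0.41, adjusted p = 0.249). GAL1- cells had the highest mean of *Pdgfra*, 10.55 ± 0.24. *Lgals1*, which encodes Galectin-1, averaged 7.66 ± 0.27 in GAL1+ cells and 6.38 ± 0.39 in GAL1- cells. The mouse *Egfr* row averaged 8.41 ± 0.68 in GAL1+ cells, below 10.51 ± 0.12 in GAL1- cells, 9.45 ± 1.12 in the PDGFRA- fraction and 10.18 ± 0.29 in the PDGFRA+ fraction. Reads were aligned to the mouse genome, so this row is no direct measure of the overexpressed human EGFR.

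Markers of several other cell types, but not of all that were read, moved with the populations. The 10 pan-leukocyte markers summed to 2620 to 3710 CPM in GAL1+ cells, 75 to 197 CPM in GAL1- cells, with 621 to 2830 CPM in the PDGFRA- fraction and 605 to 1360 CPM in the PDGFRA+ fraction. The 12 microglia and macrophage markers summed to 7260 to 9540 CPM in GAL1+ cells, 91.1 to 302 CPM in GAL1- cells, with 1180 to 6040 CPM in the PDGFRA- fraction and 1500 to 3990 CPM in the PDGFRA+ fraction. Endothelial markers summed to 335 to 445 CPM in GAL1+ cells and 58.3 to 108 CPM in GAL1- cells, and oligodendrocyte precursor cell (OPC) markers to 623 to 1900 CPM in GAL1+ cells and 5100 to 6290 CPM in GAL1- cells. Pericyte markers summed to 234 to 315 CPM in GAL1+ cells and 23.6 to 45.5 CPM in GAL1- cells (6 of 6 called higher). Mature oligodendrocyte markers summed to 841 to 1200 CPM in the PDGFRA- fraction and 340 to 432 CPM in the PDGFRA+ fraction, and to 200 to 359 CPM in GAL1+ cells and 452 to 727 CPM in GAL1- cells. T and NK cell markers summed to 6.59 to 13.8 CPM in GAL1+ cells and 4.23 to 17.1 CPM in GAL1- cells, with 0 of 5 called. Of 4 neutrophil markers, 2 were called higher in GAL1+ than in GAL1- cells and 2 were not called. Their log2 fold changes ran from -0.03 to 3.84. None of these marker genes was at or under 3 reads in all libraries of any population. That holds only for markers that passed the authors' filter for low levels. Of 6 listed neutrophil markers, 4 were among the genes kept, and of 7 listed T and NK cell markers, 5 were. *Ptprc*, the gene of CD45, was at 8.65 ± 0.40 in GAL1+ cells and 4.60 ± 0.79 in GAL1- cells, and *Pecam1* at 5.81 ± 0.52 and 2.41 ± 0.33. The part of these cells in the transporter differences was not tested, and in bulk RNA fewer cells of a type and less RNA per cell cannot be told apart.

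**Figure D1:**
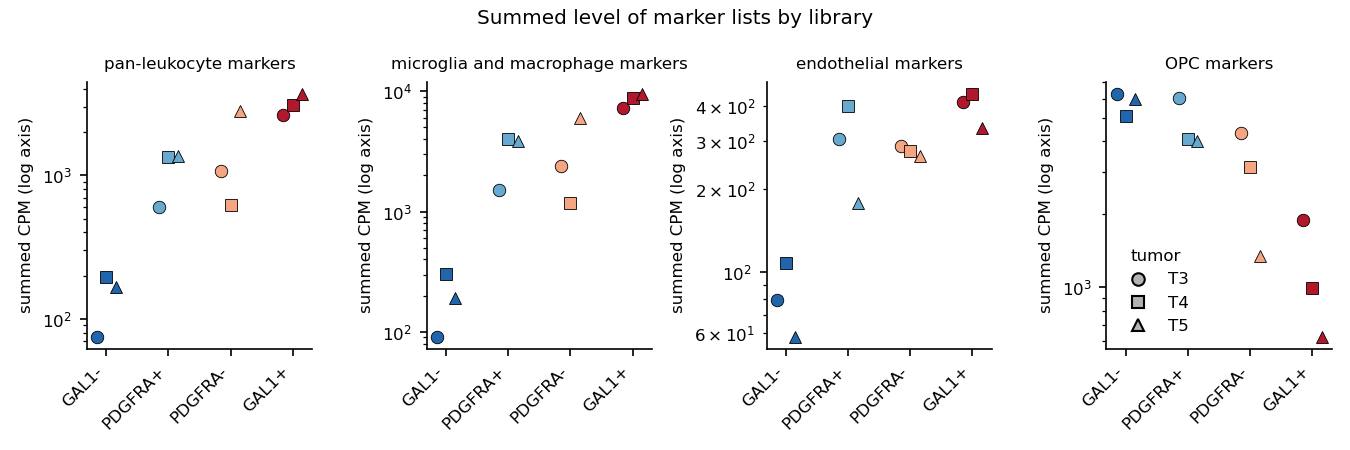
Summed CPM of 4 marker lists (log axis) in each library, by population on the x axis, with the tumor as symbol. The pan-leukocyte sums of GAL1+ libraries lie at 2620 to 3710 CPM and those of GAL1- libraries at 75 to 197 CPM, while OPC sums have the opposite order.

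The stretches just upstream of 4 members, picked by hand, are shown as examples. They belong to the cystine carrier xCT, the lactate exporter MCT4, the glucose carrier GLUT1 and *Slc16a14*, which was much lower in GAL1+ cells. Each is the 100 bases before the transcript start, 5′ to 3′ on the strand of the gene, from RefSeq on GRCm38.p6. Capitals mark matches, on either strand, to the hypoxia element core ACGTG or the amino acid response element core TGATGNAAN. The windows lie at chr3:50443614-50443713 (- strand) for *Slc7a11*, chr11:120948967-120949066 (+ strand) for *Slc16a3*, chr4:119108645-119108744 (+ strand) for *Slc2a1* and chr1:84935084-84935183 (- strand) for *Slc16a14*.
Slc7a11: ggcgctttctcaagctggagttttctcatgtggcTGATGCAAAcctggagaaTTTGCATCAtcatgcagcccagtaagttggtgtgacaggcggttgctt
Slc16a3: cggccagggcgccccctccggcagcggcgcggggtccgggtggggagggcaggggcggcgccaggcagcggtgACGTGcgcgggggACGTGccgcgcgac
Slc2a1: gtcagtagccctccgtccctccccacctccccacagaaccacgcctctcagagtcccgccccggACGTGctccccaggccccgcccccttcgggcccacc
Slc16a14: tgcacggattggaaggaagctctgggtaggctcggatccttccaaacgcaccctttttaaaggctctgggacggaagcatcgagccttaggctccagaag
The *Slc7a11* stretch holds a pair of amino acid response cores on opposite strands, which begin 66 and 48 bases before the start. The *Slc16a3* stretch holds a pair of hypoxia cores, 27 and 14 bases before the start, and the *Slc2a1* stretch holds 1, 36 bases before it. No match was found in the *Slc16a14* stretch. Promoter windows of 300 bases (250 before and 50 after the start) were matched to 29 of the 40 members, which have 35 windows. ACGTG was found in 14 of these 35 windows, belonging to 12 members, and in 19.6% of all 32851 windows in the table. TGATGNAAN was found in 3 of the 35 windows (*Slc7a11* and *Slc7a7*) and in 3.95% of all windows. The antioxidant element core TGACNNNGC was found in 6 of the 35 and in 12.4% of all, and the PU.1 core GAGGAAGT in 0 of the 35 and in 3.2% of all. The windows of *Slc7a8* and *Slc16a10*, both much higher in GAL1+ than in GAL1- cells, held no match to any of these cores. That of *Slc7a14*, which was lower in GAL1+ cells, held ACGTG. Matches to TGATGNAAN and TGACNNNGC can overlap, and a match describes letters only.

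The transporters differed widely between GAL1+ and GAL1- cells, and each of the 4 families with several members split into genes higher and genes lower in GAL1+ cells. In this comparison, 31 of the 40 members were called, where 58.2% of all genes were called. Of these 31, 20 were higher in GAL1+ cells (28.9% of all genes were called higher) and 11 were lower (29.3% of all genes). The direction was the same in 3 of 3 tumors for each of the 31, which is no separate check because the same tumors gave the calls. At an unadjusted p under 0.05 the count was also 31, where 62.8% of all genes passed. Libraries of the GAL1+ and GAL1- cells did not overlap for 32 members, where 60.6% of all genes did not overlap. The median absolute log2 fold change was 1.48 over the members and 0.70 over all genes, and the median signed value was 0.45 against -0.03. A test for any difference among the 4 populations called 29 of the 40, where it called 46.4% of all genes.

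**Figure D2:**
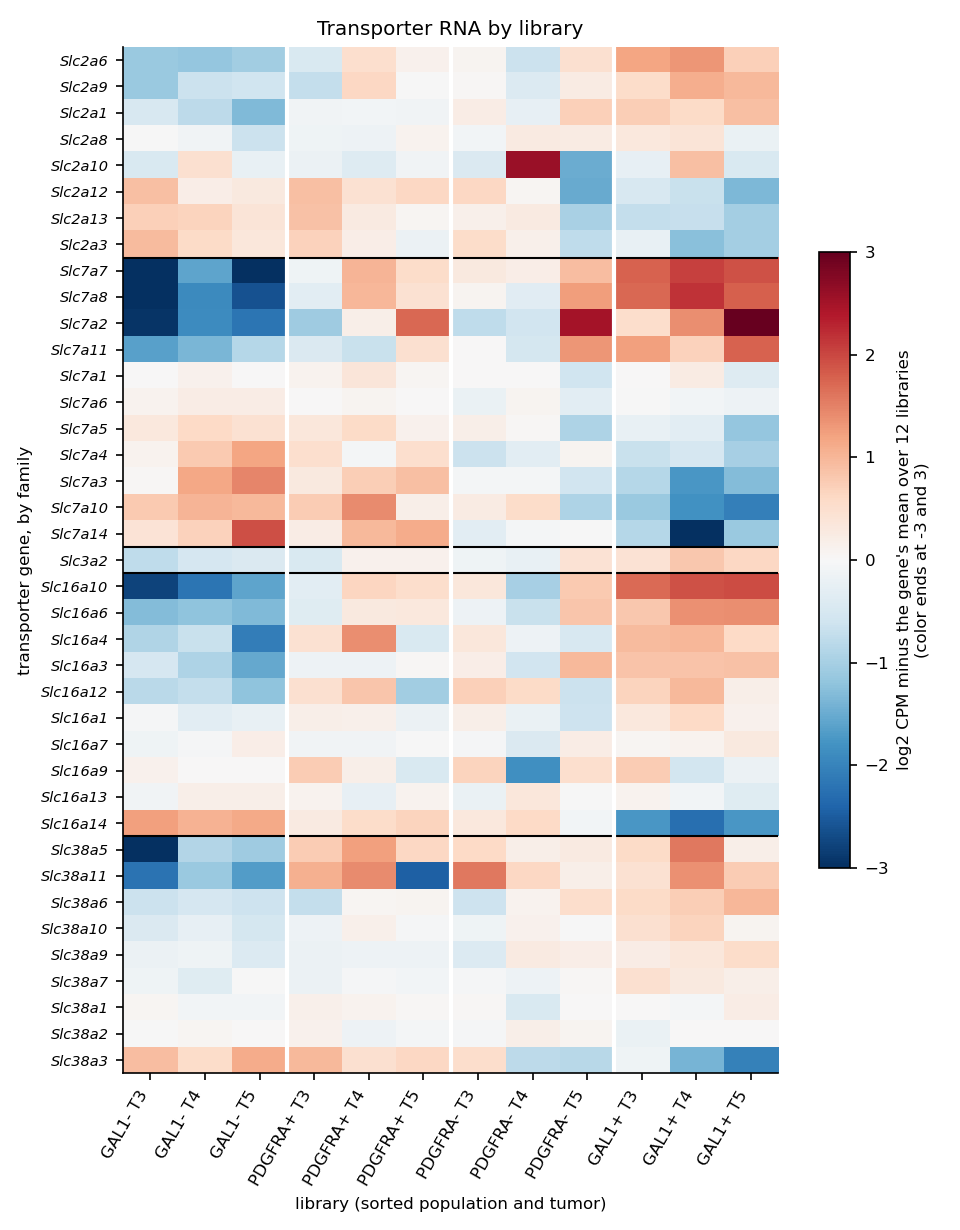
Heat map of 39 of the 40 transporters (rows, by family) in the 12 libraries (columns), colored by log2 CPM minus the mean of the gene over the 12 libraries, with colors ending at -3 and 3. Within each family of several members, genes at the top are red in GAL1+ libraries and blue in GAL1- libraries, and genes at the bottom the reverse, as for *Slc7a7* and *Slc16a14*.

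The glucose transporters GLUT1 and GLUT3 moved in opposite directions. *Slc2a1*, which encodes GLUT1, the main carrier of basal glucose uptake, was at 7.17, 6.86 and 6.34 in the GAL1- libraries, 8.39, 8.22 and 8.55 in the GAL1+ libraries, 7.88, 7.42 and 8.38 in the PDGFRA- libraries and 7.55, 7.57 and 7.54 in the PDGFRA+ libraries. GAL1+ and GAL1- libraries did not overlap, and PDGFRA+ libraries lay between them within 7.54 to 7.57. The log2 fold change of GAL1+ over GAL1- cells was 1.60 (SE 0.24, adjusted p = 0.000441). *Slc2a3*, which encodes the high-affinity carrier GLUT3, was at 6.81, 6.43 and 6.19 in the GAL1- libraries, 5.63, 4.60 and 4.83 in the GAL1+ libraries, 6.42, 6.00 and 5.09 in the PDGFRA- libraries and 6.55, 6.06 and 5.69 in the PDGFRA+ libraries. GAL1+ libraries were the lowest of the 4 populations except for the PDGFRA- library of T5, which lay within their range. The GAL1+ over GAL1- difference was -1.46 (SE 0.19, adjusted p = 0.00018). Per kilobase of exon, GLUT1 RNA exceeded GLUT3 RNA in all 4 populations: the medians were 33.1 and 11.9 CPM per kb in GAL1- cells, 95.7 and 3.93 in GAL1+ cells, 67.2 and 8.83 in the PDGFRA- fraction, and 53.5 and 9.21 in the PDGFRA+ fraction.

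Of the other 6 SLC2 genes, 2 were higher and 2 lower in GAL1+ than in GAL1- cells. *Slc2a6* encodes GLUT6, a carrier found on lysosomes, and was at 2.90, 2.85 and 2.96 in the GAL1- libraries, 5.20, 5.33 and 4.71 in the GAL1+ libraries, 4.09, 3.35 and 4.49 in the PDGFRA- libraries and 3.54, 4.50 and 4.14 in the PDGFRA+ libraries. Its GAL1- libraries were the lowest of all and its GAL1+ libraries the highest. *Slc2a9*, whose product GLUT9 carries urate, was at 1.49, 1.95 and 2.0 in the GAL1- libraries, 3.15, 3.69 and 3.57 in the GAL1+ libraries, 2.65, 2.20 and 2.85 in the PDGFRA- libraries and 1.88, 3.23 and 2.60 in the PDGFRA+ libraries. The GAL1 populations did not overlap for either gene, with log2 fold changes of 2.18 (SE 0.32, adjusted p = 0.000369) for *Slc2a6* and 1.66 (SE 0.28, adjusted p = 0.00085) for *Slc2a9*. *Slc2a12* (GLUT12) was at 2.54, 1.83 and 1.92 in the GAL1- libraries, 1.14, 0.96 and 0.27 in the GAL1+ libraries, 2.24, 1.69 and 0.11 in the PDGFRA- libraries and 2.53, 2.08 and 2.24 in the PDGFRA+ libraries, and was lower in GAL1+ cells, with a difference from GAL1- cells of -1.30 (SE 0.36, adjusted p = 0.0107). Without tumor T3, the adjusted p of this call was 0.0822. *Slc2a13*, which encodes the proton-coupled myo-inositol carrier HMIT, was at 3.37, 3.32 and 3.03 in the GAL1- libraries, 1.94, 1.95 and 1.63 in the GAL1+ libraries, 2.79, 2.91 and 1.68 in the PDGFRA- libraries and 3.53, 2.91 and 2.70 in the PDGFRA+ libraries. It was lower in GAL1+ than in GAL1- cells, at -1.40 (SE 0.23, adjusted p = 0.000725). The remaining 2 genes were not called. *Slc2a8* (GLUT8) differed by 0.42 (95% confidence interval -0.08 to 0.91, adjusted p = 0.134), and *Slc2a10* (GLUT10) by 0.15 (95% confidence interval -1.38 to 1.67, adjusted p = 0.868), with its highest value of 2.81 in the PDGFRA- library of T4.

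**Figure D3:**
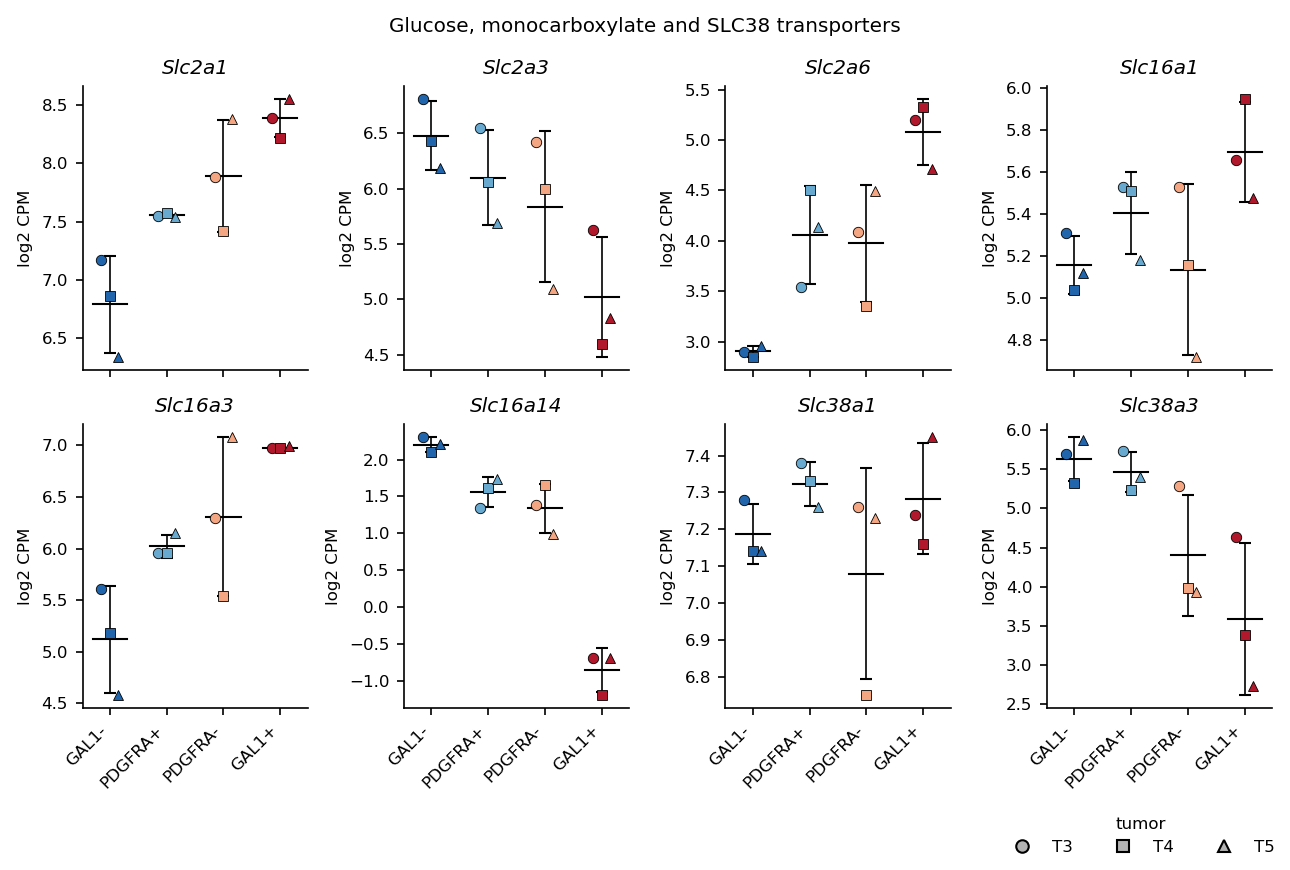
Log2 CPM of 8 members of the SLC2, SLC16 and SLC38 families in each library (symbols give the tumor), with the mean (line) and SD (bars) of 3 libraries per population. *Slc2a1*, *Slc2a6* and *Slc16a3* have their highest means in GAL1+ cells, *Slc2a3*, *Slc16a14* and *Slc38a3* have their lowest there, and *Slc16a1* and *Slc38a1* span less than 1.5 log2 units over the 12 libraries.

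*Slc3a2*, the shared heavy subunit, was higher in GAL1+ cells, while the light subunits that join it split. *Slc3a2* was at 6.99, 7.25 and 7.32 in the GAL1- libraries, 8.2, 8.56 and 8.37 in the GAL1+ libraries, 7.62, 7.54 and 8.19 in the PDGFRA- libraries and 7.29, 7.88 and 7.88 in the PDGFRA+ libraries. All GAL1+ libraries lay above all GAL1- libraries, and the difference was 1.19 (SE 0.16, adjusted p = 0.000192). Among its 6 light subunits in the table, *Slc7a7*, *Slc7a8* and *Slc7a11* were higher in GAL1+ cells, *Slc7a5* and *Slc7a10* were lower, and *Slc7a6* was not called. The 2 largest differences of all 40 members were those of *Slc7a7* and *Slc7a8*. *Slc7a7*, which encodes y+LAT1 for cationic and neutral amino acids, was at 0.13, 2.18 and 0.44 in the GAL1- libraries, 5.54, 5.83 and 5.68 in the GAL1+ libraries, 4.06, 3.96 and 4.69 in the PDGFRA- libraries and 3.65, 4.78 and 4.31 in the PDGFRA+ libraries. *Slc7a8*, which encodes LAT2 for neutral amino acids, was at 2.08, 3.44 and 2.75 in the GAL1- libraries, 7.07, 7.52 and 7.15 in the GAL1+ libraries, 5.43, 5.01 and 6.61 in the PDGFRA- libraries and 5.05, 6.34 and 5.81 in the PDGFRA+ libraries. For both genes the GAL1- libraries were the lowest of the 12 and the GAL1+ libraries the highest, with the PDGFRA+ and PDGFRA- libraries between. The log2 fold changes of GAL1+ over GAL1- cells were 4.77 (SE 0.39, adjusted p = 3.94e-05) and 4.49 (SE 0.39, adjusted p = 4.31e-05), beside a median of 4.44 for the pan-leukocyte markers and 5.43 for the microglia and macrophage markers.

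*Slc7a11* encodes xCT, which exchanges glutamate for cystine, and was at 3.78, 4.03 and 4.55 in the GAL1- libraries, 6.64, 6.11 and 7.17 in the GAL1+ libraries, 5.41, 4.88 and 6.74 in the PDGFRA- libraries and 4.98, 4.73 and 5.89 in the PDGFRA+ libraries. GAL1- libraries were the lowest in each tumor and GAL1+ libraries the highest. The GAL1+ over GAL1- difference was 2.52 (SE 0.22, adjusted p = 4.05e-05). The LAT1 gene *Slc7a5*, a main route for leucine and other large neutral amino acids, was at 7.01, 7.30 and 7.17 in the GAL1- libraries, 6.48, 6.38 and 5.55 in the GAL1+ libraries, 6.87, 6.75 and 5.79 in the PDGFRA- libraries and 7.04, 7.28 and 6.83 in the PDGFRA+ libraries. GAL1+ libraries lay below GAL1- libraries, with a log2 difference of -1.03 (SE 0.21, adjusted p = 0.00255). *Slc7a10* encodes Asc-1, a carrier of small neutral amino acids that include D-serine, and was at 1.19, 1.43 and 1.38 in the GAL1- libraries, -0.70, -1.40 and -1.63 in the GAL1+ libraries, 0.65, 0.96 and -0.52 in the PDGFRA- libraries and 1.17, 1.84 and 0.60 in the PDGFRA+ libraries. GAL1+ libraries lay below all others, with a GAL1+ over GAL1- difference of -2.58 (SE 0.38, adjusted p = 0.000365), or -1.33 with a pseudocount of 1 CPM. *Slc7a6* (y+LAT2) lay within 4.61 to 5.15 in all 12 libraries, and its difference was -0.26 (95% confidence interval -0.52 to 0.00, adjusted p = 0.0844). Per kilobase, *Slc7a5* was the highest of the light subunits in GAL1- cells, with a median of 38.8 CPM per kb against 1.34 for *Slc7a8* and 0.409 for *Slc7a7*. In GAL1+ cells, *Slc7a8* was at 28.4, *Slc7a5* at 22.5 and *Slc7a7* at 15.5 CPM per kb, and the range of *Slc7a8*, 26.8 to 36.7, lay above that of *Slc7a5*, 12.6 to 24.1.

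**Figure D4:**
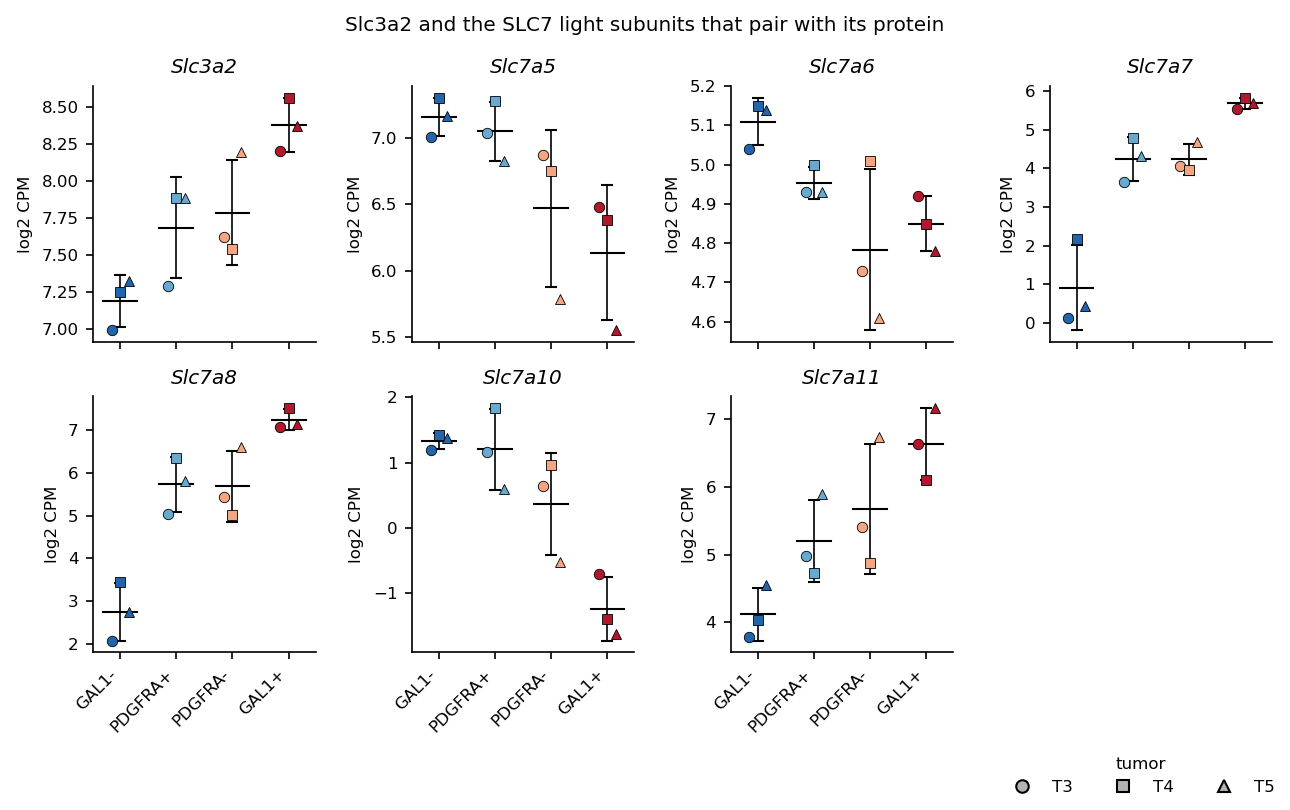
Log2 CPM of *Slc3a2* and of the 6 SLC7 light subunits that join its protein, in each library (symbols give the tumor), with the mean (line) and SD (bars) of 3 libraries per population. *Slc3a2*, *Slc7a7*, *Slc7a8* and *Slc7a11* are higher in GAL1+ than in GAL1- libraries, *Slc7a5* and *Slc7a10* are lower, and *Slc7a6* stays between 4.61 and 5.15.

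The cationic amino acid transporters, which need no heavy subunit, also split. *Slc7a2* encodes CAT2, which supplies arginine in activated macrophages, and was at 3.38, 4.42 and 4.13 in the GAL1- libraries, 6.85, 7.72 and 9.40 in the GAL1+ libraries, 5.56, 5.75 and 8.80 in the PDGFRA- libraries and 5.24, 6.50 and 8.03 in the PDGFRA+ libraries. Its GAL1+ and GAL1- libraries did not overlap, while the PDGFRA+ and PDGFRA- libraries of T5 lay within the GAL1+ range. The GAL1+ over GAL1- difference was 4.01 (SE 0.49, adjusted p = 0.000131), or 3.39 without tumor T5. *Slc7a3*, which encodes the arginine and lysine carrier CAT3, was at 2.62, 3.74 and 4.06 in the GAL1- libraries, 1.73, 0.85 and 1.29 in the GAL1+ libraries, 2.52, 2.52 and 2.0 in the PDGFRA- libraries and 2.88, 3.33 and 3.49 in the PDGFRA+ libraries. GAL1+ cells were lower than GAL1- cells in each tumor, with a fitted difference of -2.18 (SE 0.38, adjusted p = 0.000913), or -2.83 without tumor T3. *Slc7a1*, the widely expressed CAT1 gene, lay within 6.07 to 7.02 in all 12 libraries, with a difference of -0.11 (95% confidence interval -0.41 to 0.20, adjusted p = 0.525). The family members *Slc7a4* and *Slc7a14* were both lower in GAL1+ cells. *Slc7a4* was at 0.71, 1.39 and 1.79 in the GAL1- libraries, -0.05, 0.10 and -0.38 in the GAL1+ libraries, -0.03, 0.28 and 0.70 in the PDGFRA- libraries and 1.10, 0.55 and 1.12 in the PDGFRA+ libraries. Its difference was -1.40 (SE 0.34, adjusted p = 0.00624), or -0.87 with a pseudocount of 1 CPM, and its adjusted p was 0.0926 without tumor T5. *Slc7a14* was at 2.19, 2.49 and 3.71 in the GAL1- libraries, 0.94, -1.19 and 0.67 in the GAL1+ libraries, 1.46, 1.74 and 1.78 in the PDGFRA- libraries and 2.0, 2.77 and 2.89 in the PDGFRA+ libraries. Its difference was -2.66 (SE 0.50, adjusted p = 0.0014), or -1.88 with a pseudocount of 1 CPM and -3.36 without tumor T3, and GAL1+ and GAL1- libraries did not overlap.

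Of the SLC16 genes for lactate transport, those of MCT4 and MCT1 were higher in GAL1+ than in GAL1- cells, and that of MCT2 was not called. *Slc16a3* encodes MCT4, known for lactate export from glycolytic cells, and was at 5.61, 5.18 and 4.58 in the GAL1- libraries, 6.97, 6.97 and 6.99 in the GAL1+ libraries, 6.30, 5.54 and 7.08 in the PDGFRA- libraries and 5.96, 5.96 and 6.15 in the PDGFRA+ libraries. GAL1+ libraries stayed within 6.97 to 6.99, only the PDGFRA- library of T5 was above them, and GAL1- libraries lay at or near the bottom. The log2 fold change of GAL1+ over GAL1- cells was 1.85 (SE 0.34, adjusted p = 0.00123). *Slc16a1*, which encodes MCT1, was at 5.31, 5.04 and 5.12 in the GAL1- libraries, 5.66, 5.95 and 5.48 in the GAL1+ libraries, 5.53, 5.16 and 4.72 in the PDGFRA- libraries and 5.53, 5.51 and 5.18 in the PDGFRA+ libraries. GAL1+ and GAL1- libraries did not overlap, but the difference was small, at 0.54 (SE 0.16, adjusted p = 0.0151). The adjusted p of this call was 0.181 without tumor T4 (difference 0.36) and also missed 0.05 with no replicate block. *Slc16a7*, the MCT2 gene, differed by 0.14 (95% confidence interval -0.19 to 0.48, adjusted p = 0.44). The chaperones that bring these proteins to the surface were also higher in GAL1+ cells: *Bsg* (basigin, partner of MCT1 and MCT4) by 0.34 on the log2 scale (SE 0.09, adjusted p = 0.0116) and *Emb* (embigin, a partner of MCT2) by 0.93 (SE 0.28, adjusted p = 0.0167). The other SLC3 heavy subunit gene, *Slc3a1*, was not called (-0.50, SE 0.51, adjusted p = 0.418).

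The widest differences in the SLC16 family were in genes other than those of MCT1, MCT2 and MCT4. *Slc16a10*, which encodes the aromatic amino acid carrier TAT1, was at 1.02, 1.62 and 2.22 in the GAL1- libraries, 5.51, 5.71 and 5.76 in the GAL1+ libraries, 4.14, 2.81 and 4.60 in the PDGFRA- libraries and 3.48, 4.46 and 4.34 in the PDGFRA+ libraries. *Slc16a6*, whose product MCT7 carries ketone bodies, was at 4.07, 4.18 and 4.05 in the GAL1- libraries, 6.19, 6.75 and 6.77 in the GAL1+ libraries, 5.22, 4.71 and 6.22 in the PDGFRA- libraries and 5.02, 5.68 and 5.69 in the PDGFRA+ libraries. For both genes the GAL1- libraries were the lowest of the 12, and the GAL1+ libraries lay above all others except the PDGFRA- library of T5 for *Slc16a6*. The GAL1+ over GAL1- differences were 4.04 (SE 0.39, adjusted p = 5.07e-05) and 2.47 (SE 0.29, adjusted p = 0.000109). *Slc16a4* was at -0.76, -0.53 and -1.93 in the GAL1- libraries, 1.10, 1.13 and 0.73 in the GAL1+ libraries, 0.48, 0.00 and -0.34 in the PDGFRA- libraries and 0.60, 1.53 and -0.32 in the PDGFRA+ libraries, and exceeded the GAL1- level in GAL1+ cells by 2.06 (SE 0.37, adjusted p = 0.00121), or by 0.99 with a pseudocount of 1 CPM. *Slc16a12*, whose product MCT12 carries creatine, was at -0.19, -0.09 and -0.58 in the GAL1- libraries, 1.28, 1.58 and 0.79 in the GAL1+ libraries, 1.34, 1.18 and -0.03 in the PDGFRA- libraries and 1.10, 1.44 and -0.42 in the PDGFRA+ libraries. Its GAL1+ libraries lay above its GAL1- libraries, by 1.5 (SE 0.32, adjusted p = 0.00318), or by 0.87 with a pseudocount of 1 CPM. In the opposite direction, *Slc16a14*, for which no function is given here, was at 2.30, 2.10 and 2.21 in the GAL1- libraries, -0.68, -1.19 and -0.68 in the GAL1+ libraries, 1.38, 1.65 and 0.99 in the PDGFRA- libraries and 1.34, 1.61 and 1.73 in the PDGFRA+ libraries. Its GAL1+ libraries were below all 9 other libraries, and their values rest on 10, 5 and 7 reads. The log2 fold change was -3.05 (SE 0.28, adjusted p = 4.62e-05), the largest fall among the 40 in this fit, or -1.87 with a pseudocount of 1 CPM. Neither of a further pair of genes was called: *Slc16a9* (MCT9) differed by -0.05 (95% confidence interval -1.19 to 1.09, adjusted p = 0.944) and *Slc16a13* (MCT13) by -0.18 (95% confidence interval -0.65 to 0.30, adjusted p = 0.492).

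The SLC38 family held members at steady, high levels and members with few reads. *Slc38a1* encodes SNAT1, a glutamine importer, and was at 7.28, 7.14 and 7.14 in the GAL1- libraries, 7.24, 7.16 and 7.45 in the GAL1+ libraries, 7.26, 6.75 and 7.23 in the PDGFRA- libraries and 7.38, 7.33 and 7.26 in the PDGFRA+ libraries. *Slc38a2* encodes SNAT2, another importer of small neutral amino acids that cells raise on amino acid shortage, and was at 7.33, 7.41 and 7.35 in the GAL1- libraries, 7.14, 7.35 and 7.35 in the GAL1+ libraries, 7.32, 7.53 and 7.44 in the PDGFRA- libraries and 7.47, 7.19 and 7.30 in the PDGFRA+ libraries. Neither gene was called, and the populations overlapped, with differences of 0.09 (95% confidence interval -0.20 to 0.38, adjusted p = 0.559) for *Slc38a1* and -0.08 (95% confidence interval -0.34 to 0.17, adjusted p = 0.549) for *Slc38a2*. After quantile normalization, *Slc38a2* was called lower in GAL1+ cells (-0.33, adjusted p = 0.0296). *Slc38a3*, the SNAT3 gene, was at 5.70, 5.32 and 5.87 in the GAL1- libraries, 4.64, 3.38 and 2.73 in the GAL1+ libraries, 5.29, 3.98 and 3.93 in the PDGFRA- libraries and 5.74, 5.24 and 5.4 in the PDGFRA+ libraries. GAL1+ libraries lay below all GAL1- and PDGFRA+ libraries, and the log2 fold change of GAL1+ over GAL1- cells was -2.05 (SE 0.33, adjusted p = 0.000573), the only SLC38 gene called lower. Astrocyte markers summed to 195 to 320 CPM in GAL1+ libraries and 662 to 756 CPM in GAL1- libraries (3 of 7 called lower), and neuron markers to 5.81 to 26.8 and 29.9 to 88 CPM (3 of 6 called lower). Log2 fold changes ran from -2.54 to 1.12 over the astrocyte list (4 not called) and from -2.77 to 0.53 over the neuron list (3 not called). Of 7 listed neuron markers, 6 were among the genes kept. The part of these cell types in the differences of *Slc38a3* and *Slc2a3* was not tested.

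Of the SLC38 genes higher in GAL1+ cells, *Slc38a6* was at 3.90, 4.03 and 3.93 in the GAL1- libraries, 5.12, 5.29 and 5.55 in the GAL1+ libraries, 3.92, 4.65 and 5.06 in the PDGFRA- libraries and 3.83, 4.61 and 4.63 in the PDGFRA+ libraries. GAL1+ libraries lay above all others, with a GAL1+ over GAL1- difference of 1.37 (SE 0.20, adjusted p = 0.000309). *Slc38a5*, which encodes SNAT5 for glutamine and glycine, was at -4.22, -1.06 and -1.24 in the GAL1- libraries, 0.40, 1.41 and 0.01 in the GAL1+ libraries, 0.42, 0.00 and 0.10 in the PDGFRA- libraries and 0.60, 1.06 and 0.44 in the PDGFRA+ libraries. The GAL1- values rest on 1, 11 and 10 reads and those of GAL1+ cells on 22, 33 and 12 reads. Its log2 fold change was 2.78 (SE 0.68, adjusted p = 0.00636), and it ranged from 0.98 to 3.54 over 12 alternatives, with the lowest from a pseudocount of 1 CPM and the highest without tumor T5. *Slc38a11* was at -3.37, -2.26 and -2.82 in the GAL1- libraries, -0.70, 0.21 and -0.38 in the GAL1+ libraries, 0.42, -0.54 and -0.97 in the PDGFRA- libraries and -0.09, 0.27 and -3.59 in the PDGFRA+ libraries. It had 2, 4 and 3 reads in GAL1- cells and 1 read in the PDGFRA+ library of T5, so its difference of 2.52 (SE 0.81, adjusted p = 0.023) is imprecise. The difference was 0.67 with a pseudocount of 1 CPM. Its call was lost after quantile normalization and without tumor T3 or T4. The other 3 genes changed less: *Slc38a10* by 0.82 (SE 0.12, adjusted p = 0.00034), *Slc38a9*, which encodes a lysosomal arginine sensor for mTORC1, by 0.61 (SE 0.17, adjusted p = 0.0142), and *Slc38a7*, a lysosomal glutamine carrier, by 0.48 (SE 0.13, adjusted p = 0.0113). Without tumor T5 the adjusted p of *Slc38a9* was 0.147. The call of *Slc38a7* was lost without T3 and without T4, with an adjusted p of up to 0.113.

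**Figure D5:**
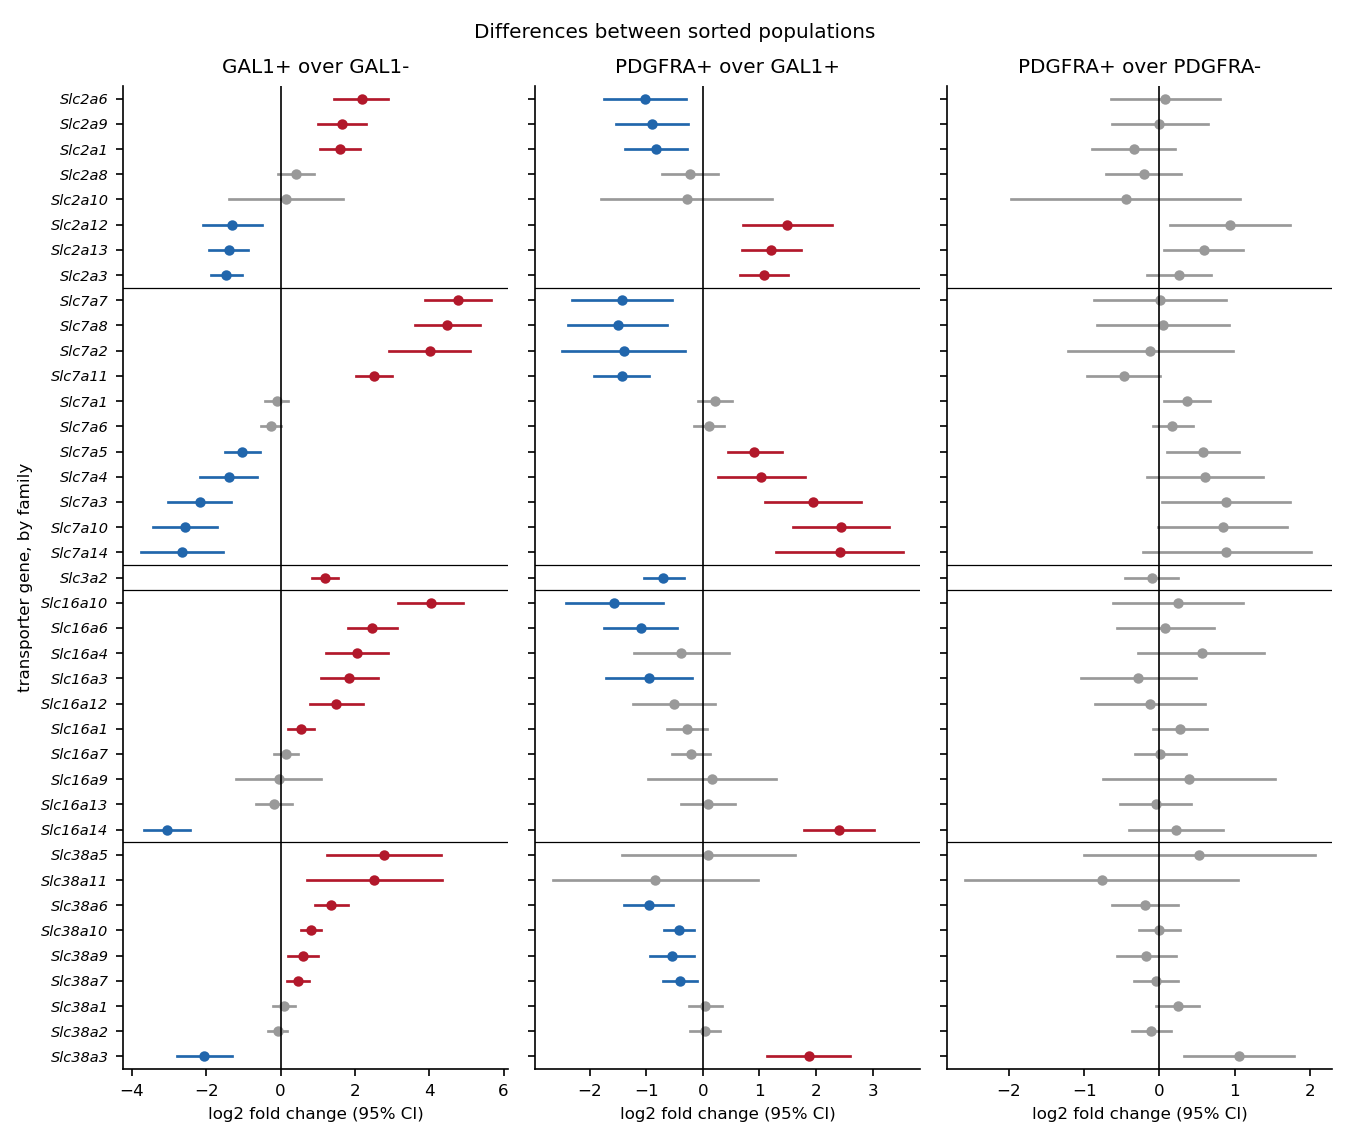
Log2 fold change (point) with 95% confidence interval (line) of 39 of the 40 transporters, by family, in 3 comparisons with different x scales; red is called higher, blue is called lower and gray is not called at an adjusted p under 0.05. GAL1+ over GAL1- has 20 red and 10 blue genes here, PDGFRA+ over GAL1+ has 10 red and 15 blue, and PDGFRA+ over PDGFRA- has 0 of either.

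PDGFRA+ and GAL1+ cells, which carry the marker of either stain, differed at most members. This comparison shares the GAL1+ libraries with the one above. It called 26 of the 40 members, where 38.0% of all genes were called: 11 were higher in PDGFRA+ cells (20.9% of all genes) and 15 were lower (17.0% of all genes). At an unadjusted p under 0.05 the count was 26, where 48.2% of all genes passed, and libraries did not overlap for 25, where 46.0% of all genes did not. The median absolute log2 fold change was 0.91 over the members and 0.47 over all genes. The amino acid carriers Asc-1 (*Slc7a10*, 2.45, SE 0.38, adjusted p = 0.0021), CAT3 (*Slc7a3*, 1.94, SE 0.38, adjusted p = 0.00482) and LAT1 (*Slc7a5*, 0.91, SE 0.21, adjusted p = 0.0101) were higher in PDGFRA+ cells. So were *Slc7a14* (2.42, SE 0.50, adjusted p = 0.00606), *Slc16a14* (2.41, SE 0.28, adjusted p = 0.00136) and the SNAT3 gene *Slc38a3* (1.87, SE 0.33, adjusted p = 0.00311). GLUT3, GLUT12 and HMIT RNA were each higher in PDGFRA+ cells, with log2 fold changes of 1.08 for *Slc2a3*, 1.49 for *Slc2a12* and 1.21 for *Slc2a13*. *Slc7a4* was also called higher (1.03, SE 0.34, adjusted p = 0.0397), a call that 7 of 13 alternatives lost. With a pseudocount of 1 CPM the differences were 1.25 for *Slc7a10*, 1.37 for *Slc16a14* and 0.60 for *Slc7a4*, and that of *Slc7a14* ran from 1.65 to 3.09 over the alternatives.

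Among the 15 members lower in PDGFRA+ than in GAL1+ cells, *Slc16a10* (-1.57, SE 0.39, adjusted p = 0.0127), *Slc7a8* (-1.51, SE 0.39, adjusted p = 0.0156), *Slc7a11* (-1.44, SE 0.22, adjusted p = 0.00196) and *Slc7a7* (-1.44, SE 0.39, adjusted p = 0.0194) had the widest differences. *Slc7a2* differed by -1.40 (SE 0.49, adjusted p = 0.0468), *Slc16a6* by -1.10 (SE 0.29, adjusted p = 0.0161) and *Slc2a6* by -1.02 (SE 0.32, adjusted p = 0.0325). The log2 fold changes of the others were -0.96 for *Slc38a6*, -0.95 for *Slc16a3*, -0.90 for *Slc2a9*, -0.83 for *Slc2a1*, -0.70 for *Slc3a2*, -0.54 for *Slc38a9*, -0.42 for *Slc38a10* and -0.40 for *Slc38a7*. Quantile normalization gave -0.45 for *Slc3a2* and -0.25 for *Slc38a10*. The adjusted p of *Slc16a3* was 0.04999, and 6 of 13 alternatives lost its call. Of 13 alternatives, 7 kept the call of *Slc38a7*, 8 that of *Slc7a2* and 9 those of *Slc38a9* and *Slc38a10*. The calls of *Slc2a1*, *Slc2a9* and *Slc7a7* were each kept in 10. Pan-leukocyte markers were lower in PDGFRA+ cells by a median log2 fold change of -1.60 (from -1.73 to -1.35, 10 of 10 called), and OPC markers were higher by a median of 2.43 (7 of 7 called). The count of 26 was 14 (7 higher and 7 lower) with no replicate block, and 10 (8 higher and 2 lower) without tumor T3. It was 18 without T4 and 19 without T5. The 10 called without T3 included *Slc2a3*, *Slc7a3*, *Slc7a5*, *Slc7a10*, *Slc7a14*, *Slc16a14* and *Slc38a3*, all higher in PDGFRA+ cells, and *Slc7a11* and *Slc38a6*, both lower. Values for the 2 lactate carriers that were not called were -0.29 (95% confidence interval -0.64 to 0.07, adjusted p = 0.178) for *Slc16a1* and -0.21 (95% confidence interval -0.55 to 0.12, adjusted p = 0.281) for *Slc16a7*.

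PDGFRA+ and GAL1- cells come from different stains, and their transporter profiles differed at fewer members. In this comparison, which shares its libraries with those above, 8 members were called, where 8.27% of all genes were called. All 8 were higher in PDGFRA+ cells, where 8.26% of all genes were called higher and 0.0110% lower. At an unadjusted p under 0.05 there were 16 members, where 17.3% of all genes passed, and libraries did not overlap for 14, where 24.6% of all genes did not. The 8 called members were *Slc7a7* (3.33, SE 0.39, adjusted p = 0.00199), *Slc7a8* (2.98, SE 0.39, adjusted p = 0.00231), *Slc38a5* (2.87, SE 0.68, adjusted p = 0.029), *Slc7a2* (2.61, SE 0.49, adjusted p = 0.00882), *Slc16a10* (2.47, SE 0.39, adjusted p = 0.00395), *Slc16a4* (1.68, SE 0.37, adjusted p = 0.0214), *Slc16a6* (1.36, SE 0.29, adjusted p = 0.0163) and *Slc7a11* (1.08, SE 0.22, adjusted p = 0.0127). The median log2 fold change was 2.80 for pan-leukocyte markers, 3.86 for microglia and macrophage markers and 2.12 for endothelial markers in the same comparison. No member was called without tumor T3, where no gene of the table was called either, 3 (*Slc7a2*, *Slc7a7* and *Slc7a8*) without T5, and 3 (*Slc7a7*, *Slc7a8* and *Slc16a10*) with no replicate block. *Slc38a5* had 31, 23 and 24 reads in PDGFRA+ cells, and its difference ran from 1.02 with a pseudocount of 1 CPM to 3.47 without T5. With that pseudocount the difference of *Slc16a4* was 0.79 and that of *Slc7a7* 2.74, and without T5 that of *Slc7a2* was 1.97. GLUT1 (*Slc2a1*, 0.77, SE 0.24, adjusted p = 0.104) and *Slc3a2* (0.50, SE 0.16, adjusted p = 0.0994) were not called here, but both were when the PDGFRA- library of T5 was left out of the fit, with adjusted p of 0.0301 and 0.0484. A fit to the PDGFRA+ and GAL1- libraries alone called 15 members, 14 of them higher and 1 (*Slc2a3*) lower.

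The PDGFRA sort gave no called transporter. Between PDGFRA+ and PDGFRA- cells, 0 of 40 members and 0% of all genes were called by limma, and the count was also 0 in each alternative fit, normalization, filter and tumor left out. At an unadjusted p under 0.05 there were 7 members, where 11.8% of all genes passed, among them *Slc38a3*, *Slc7a5*, *Slc7a1*, *Slc2a12*, *Slc2a13* and *Slc7a3*. All 7 had positive differences, and the split by direction was not counted over all genes. Libraries did not overlap for 5 members, where 6.94% of all genes did not. *Slc38a3* had the smallest p, with a log2 difference of 1.06 (95% confidence interval 0.33 to 1.79, adjusted p = 0.3). LAT1 (*Slc7a5*) differed by 0.58 (95% confidence interval 0.10 to 1.06, adjusted p = 0.351) and CAT3 (*Slc7a3*) by 0.88 (95% confidence interval 0.04 to 1.73, adjusted p = 0.413). The median absolute log2 fold change was 0.26 over the members and 0.21 over all genes.

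Several members had opposite differences in different tumors of the PDGFRA sort. These 6 genes were chosen after their values were seen. The PDGFRA+ minus PDGFRA- difference in log2 CPM was -0.41, 0.82 and -0.38 for *Slc7a7*, -0.38, 1.33 and -0.80 for *Slc7a8* and -0.65, 1.65 and -0.26 for *Slc16a10*. It was -0.20, 0.97 and -0.52 for *Slc16a6*, -0.56, 1.14 and -0.35 for *Slc2a6* and -0.76, 1.03 and -0.25 for *Slc2a9*. In each of the 6 genes PDGFRA+ cells were higher in T4 and lower in T3 and T5. How many of all members or all genes have these signs was not counted. *Slc7a2*, *Slc16a3* and *Slc3a2* also have them. *Slc7a11* (-0.43, -0.15 and -0.85) and *Slc38a6* (-0.09, -0.04 and -0.43), both higher in GAL1+ than in GAL1- cells, do not. The pan-leukocyte markers had median differences of -0.89, 1.24 and -1.14, and the microglia and macrophage markers of -0.64, 1.52 and -0.77. Mature oligodendrocyte markers had median differences of -1.22, -2.52 and -2.24, lower in PDGFRA+ cells of each tumor, with 0 of 7 called. The part of these cells was not tested.

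The enzymes and carriers that work with the transporters were read from lists. Of 12 genes for glucose and lactate handling, 8 were called higher and 2 lower in GAL1+ than in GAL1- cells, where 28.9% of all genes were called higher and 29.3% lower, with a median log2 fold change of 0.95 (from -1.74 to 5.5). Of 14 genes for glutamine, cystine and amino acid handling, 8 were higher and 3 lower, with a median of 0.51 (from -2.54 to 7.96). Among 14 further amino acid transporters of the SLC1, SLC6, SLC36 and SLC43 families, 6 were higher and 7 lower, with a median of -1.34 (from -2.99 to 2.80). Between PDGFRA+ and GAL1+ cells, 2 of 12 genes for glucose and lactate handling were higher and 7 lower, 2 of 14 genes for amino acid handling were higher and 7 lower, and 7 of the 14 further transporters were higher and 5 lower, where 20.9% of all genes were called higher and 17.0% lower. No gene of these 3 lists was called between PDGFRA+ and PDGFRA- cells.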

How the data were processed

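RNA from flow-sorted EGFR+ cells of 3 mouse GBMs (4 populations each, 12 libraries) had been made into libraries with the SMARTer Stranded Total RNAseq v3 Pico kit. The authors trimmed reads with fastp, aligned them with STAR to mm39, counted exons with featureCounts (multi-mapping reads as fractions), kept genes with CPM above 1 in at least 3 samples, scaled by TMM and applied voom with limma. The deposited values are log2 CPM with an offset of 0.5 reads. The versions of fastp, STAR, featureCounts and limma are not given in the sources used here. In its Results the study calls these cells CD45-; its description of this sort lists antibodies to EGFR, PDGFR and Galectin-1 and no other.

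The deposited log2 values were fitted with limma 3.58.1 in R 4.3.3, with a term for population and the tumor as a block, over all 12 libraries (eBayes with trend, residual degrees of freedom 6, prior 3.49). Pairing rests on the tumor numbers in the labels. After population means were removed, same-tumor libraries correlated at 0.140 to 0.662 across genes (18 pairs, mean 0.486). Reads were estimated by taking the smallest value in a library as that of a count of 0, after which 41.3% to 59.2% of values were whole to within 0.01. Floors of 3 reads cover counting error only. CPM per kb used merged exons of GENCODE M21 (GRCm38, 40 of 40 members matched by symbol), another build than that of the files, so these levels are approximate. The fit was tested on simulated data.

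The values of 1 member and 1 allele of the mice are not reported here; counts over the members include that gene. The members and lists were chosen with earlier results of these data known. Values in every library are given for members called with an absolute log2 fold change of at least 1 in any pairwise comparison and 1 sign in 3 tumors (up to 8 per family), and for *Slc2a1*, *Slc2a3*, *Slc3a2*, *Slc7a5*, *Slc7a11*, *Slc16a1*, *Slc16a3*, *Slc38a1* and *Slc38a2*. Alternatives changed the block, the libraries fitted, the variance model, weights, pseudocount (1 CPM), low-value filter, normalization and call rule, or left out a tumor or the PDGFRA- library of T5. Figures were drawn with matplotlib 3.10.9 in Python 3.11.15.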

Additional observations from a re-analysis of the deposited data

How the results depend on the processing

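All 65 called differences of members kept their direction under each alternative run, and 32 of them were called under each. Over all alternatives, 756 of 842 refitted values of these differences remained called. Removing the replicate block lowered the called members from 26 to 14 between PDGFRA+ and GAL1+ cells and from 8 to 3 between PDGFRA+ and GAL1- cells. Without the block, 30 members were called between GAL1+ and GAL1- cells and 24 for any difference among the 4 populations. A fit to the libraries of the 2 groups alone called 15 members between PDGFRA+ and GAL1- cells. This fit was not run for any difference among the 4 populations, which needs all groups. When a tumor, or the PDGFRA- library of T5, was left out, the counts ran from 28 to 31 between GAL1+ and GAL1- cells, from 10 to 26 between PDGFRA+ and GAL1+ cells, from 0 to 12 between PDGFRA+ and GAL1- cells, and from 19 to 28 for any difference. The lowest count in each of the last 3 was without T3. Fits without T4 or T5 left out as many libraries. They called 18 and 19 members between PDGFRA+ and GAL1+ cells and 6 and 3 between PDGFRA+ and GAL1- cells. For any difference they called 20 and 22. Median centring set the median of all genes at -0.15 between PDGFRA+ and GAL1+ cells and -0.13 between PDGFRA+ and GAL1- cells, and quantile normalization at -0.07 and -0.15, against 0.01 and -0.02 as deposited. Between PDGFRA+ and PDGFRA- cells the count was 0 throughout. Over all genes, the calls without the block were 3154 against 6900 between PDGFRA+ and GAL1+ cells and 612 against 1504 between PDGFRA+ and GAL1- cells. With 3 tumors and 1 to 33 reads for *Slc38a5* and *Slc38a11*, depth limits what can be said of these 2 genes. It also limits other calls with few reads on 1 side. GAL1+ libraries had 10, 5 and 7 reads for *Slc16a14* and 10, 4 and 3 for *Slc7a10*. They had 16, 13 and 9 for *Slc7a4* and 32, 5 and 19 for *Slc7a14*. GAL1- libraries had 16, 16 and 6 for *Slc16a4*.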
